A study of Mus musculus with 12 samples.

Results

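The 27 genes described here encode the enzymes that turn acetyl-CoA into cholesterol, the transcription factor SREBP2 with the proteins that escort it or hold it back, and proteins that move or store cholesterol in the cell. They were listed by gene symbol, with earlier results of these data known, and they are 27 of the 16288 genes listed in at least 1 library. All 27 were listed in each of the 12 libraries, and all 27 were among the 12545 genes that passed the low-count filter. Of these, 19 are enzymes of synthesis, 4 belong to the SREBP2 control system, and 4 act in transport or esterification.

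RNA came from C2C12 cells, an immortalized mouse myoblast line that fuses into myotubes when serum is reduced. Cells labelled GM were proliferating in medium with fetal bovine serum, and cells labelled DM 24h or DM 48h had spent that time in differentiation medium with horse serum and added insulin. At each of the 3 stages cells received DMSO, the vehicle, or 50 uM PFI-3, a small molecule ligand for the bromodomains of BRM and BRG1, the ATPases of the SWI/SNF chromatin remodeller, and for that of PB1. Treatment began 12 h before harvest in GM, preceded differentiation by 12 h in DM, and was renewed every 24 h there. This gives 6 groups of 2 libraries, lettered A and B in the titles: GM DMSO, GM PFI-3, DM 24h DMSO, DM 24h PFI-3, DM 48h DMSO and DM 48h PFI-3. All groups come from 1 cell line with no genetic change, so stage differences include the change of serum, the insulin and the density of the culture, and these cannot be told apart from differentiation. The submitters describe the libraries of a group as biological duplicates, and p-values measure only the spread between such libraries, which may be technical in part. That spread was estimated over all 6 groups together, so the GM libraries also enter the p-values at the DM stages.

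Cholesterol is built in the endoplasmic reticulum by a long series of enzymes. SREBP2 is made as a membrane protein there. When membrane sterol is low, SCAP carries it to the Golgi, where proteases release its active end, and this factor then switches on genes of synthesis and uptake. When sterol is high, the INSIG proteins hold SCAP and SREBP2 in the endoplasmic reticulum. SREBP2 binds sterol regulatory elements (SREs) in promoters, usually beside sites for the general factors NF-Y and Sp1. In muscle, cholesterol is a main component of the plasma membrane and of the membrane system that carries excitation into the fibre.

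Total expected counts were 12576374 to 13658352 per library, and member genes had 41 to 11191 counts in a library. CPM below is the count as a share of the TMM-scaled library size, and FPKM is the deposited value scaled also by transcript length. A gene was called, and is said to have risen or fallen, where edgeR's quasi-likelihood test gave an adjusted p under 0.05 over all 12545 genes. The 2 GM groups stood apart in the agreement of their libraries: chi-square over degrees of freedom between A and B was 18.3 and 13.6 there, against 1.73 to 2.09 in the 4 DM groups. Myoblast markers summed to 1149 ± 40.2 CPM (SD, n = 2) in GM DMSO. Of the markers of other cell types, 3 of 6 for adipocytes, 4 of 5 for endothelium and 4 of 6 for leukocytes were listed in any library, with summed CPM of at most 21.3, 1.22 and 9.26. In bulk RNA, fewer cells of a type and less RNA per cell cannot be told apart.

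The upstream sequences of members were searched for the motifs of SREBP2 and its partner factors. A RefSeq table of promoters on GRCm38.p6, the build the submitters name as mm10, held 22 of the 27 members, and the 250 bases before the first listed start of each gene were searched on both strands. The motifs were TCACNCCAC for the SRE, CCAAT for NF-Y, GGGCGG for Sp1 and CACGTG for the E-box, and no printed match overlaps another. Windows that share a run with an annotated transcript, or that reach into the annotated span of the gene, were left out. Of the rest, the 5 members called in the most PFI-3 comparisons are printed here, ties set by mean size of change. They show a window with the SRE, windows with its partner motifs and a window with none of them. Each runs 5′ to 3′ on the strand of its gene, with the motif matches in capitals.
Sc5d, NCBI Gene 235293, upstream of the first exon at chr9:42264301-42264550 (GRCm38.p6, minus strand): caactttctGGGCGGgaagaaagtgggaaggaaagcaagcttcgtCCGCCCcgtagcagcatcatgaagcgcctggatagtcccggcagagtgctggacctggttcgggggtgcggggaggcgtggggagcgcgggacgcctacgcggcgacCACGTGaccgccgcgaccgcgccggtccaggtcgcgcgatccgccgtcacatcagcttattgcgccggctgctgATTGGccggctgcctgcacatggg
Scap, NCBI Gene 235623, upstream of the first exon at chr9:110333038-110333287 (GRCm38.p6, plus strand): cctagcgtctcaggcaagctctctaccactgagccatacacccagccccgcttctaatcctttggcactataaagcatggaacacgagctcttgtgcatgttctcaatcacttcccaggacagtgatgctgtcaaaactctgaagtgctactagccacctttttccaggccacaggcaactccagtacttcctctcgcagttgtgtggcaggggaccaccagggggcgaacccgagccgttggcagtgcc
Soat1, NCBI Gene 20652, upstream of the first exon at chr1:156474329-156474578 (GRCm38.p6, minus strand): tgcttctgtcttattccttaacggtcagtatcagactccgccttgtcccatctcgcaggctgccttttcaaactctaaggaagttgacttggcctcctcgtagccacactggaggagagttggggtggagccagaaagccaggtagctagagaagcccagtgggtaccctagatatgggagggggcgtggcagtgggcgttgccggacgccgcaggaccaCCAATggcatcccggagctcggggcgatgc
Hmgcs1, NCBI Gene 208715, upstream of the first exon at chr13:119690101-119690350 (GRCm38.p6, plus strand): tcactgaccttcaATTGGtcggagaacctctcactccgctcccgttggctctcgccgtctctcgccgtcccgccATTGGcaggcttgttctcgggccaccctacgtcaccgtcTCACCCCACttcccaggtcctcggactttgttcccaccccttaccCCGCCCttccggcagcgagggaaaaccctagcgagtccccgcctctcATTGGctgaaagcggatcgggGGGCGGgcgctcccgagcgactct
Mvd, NCBI Gene 192156, upstream of the first exon at chr8:122443423-122443672 (GRCm38.p6, minus strand): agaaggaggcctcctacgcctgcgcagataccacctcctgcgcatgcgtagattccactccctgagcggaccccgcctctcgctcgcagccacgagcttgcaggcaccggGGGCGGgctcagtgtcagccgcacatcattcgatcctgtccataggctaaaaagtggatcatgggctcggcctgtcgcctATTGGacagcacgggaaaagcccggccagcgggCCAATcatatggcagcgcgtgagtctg
Hmgcs1 holds TCACCCCAC at bases -137 to -129 from its start, between CCAAT boxes in reverse (ATTGG) at -176 and -45, and it was the only window of the 22 with the SRE. Across all 27025 listed promoters, 1.04% held it, and 0.939% of those of genes tested. CCAAT was in 19 of the 22 member windows (86.4%), against 34.5% of all promoters and 37.0% of the 10011 promoters of genes tested. GGGCGG was in 18 of 22 (81.8%), against 32.9% of all and 60.0% of those tested. CACGTG was in 3 of 22 (13.6%), namely Sc5d, Insig1 and Hsd17b7, against 6.05% and 8.55%. The Scap window held none of the 4 motifs, Soat1, Pmvk and Insig2 held CCAAT alone, and Dhcr7 and Acat2 held GGGCGG alone. These are letter matches in a fixed window, not measured binding sites.

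Induction of differentiation in vehicle-treated cells was followed by a steep rise and then a fall of the synthesis enzymes. Between GM and DM 24h with DMSO, 23 of 27 members rose and 2 fell, where 30.6% of all genes tested rose and 30.0% fell. The median member changed by 1.85 on the log2 scale and the median of all genes by 0.02. Between DM 24h and DM 48h, 2 members rose and 20 fell, where 24.2% of genes rose and 23.9% fell, with a member median of -1.04 and a median of all genes of 0.00. The summed CPM of the 19 enzymes was 821 and 1499 in the GM DMSO libraries. It was 4511 and 4430 after 24 h in DM, and 1801 and 1856 after 48 h. The mean at DM 24h was 3.85 times the GM mean, and the DM 48h mean was 0.409 times the DM 24h mean.

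**Figure D1:**
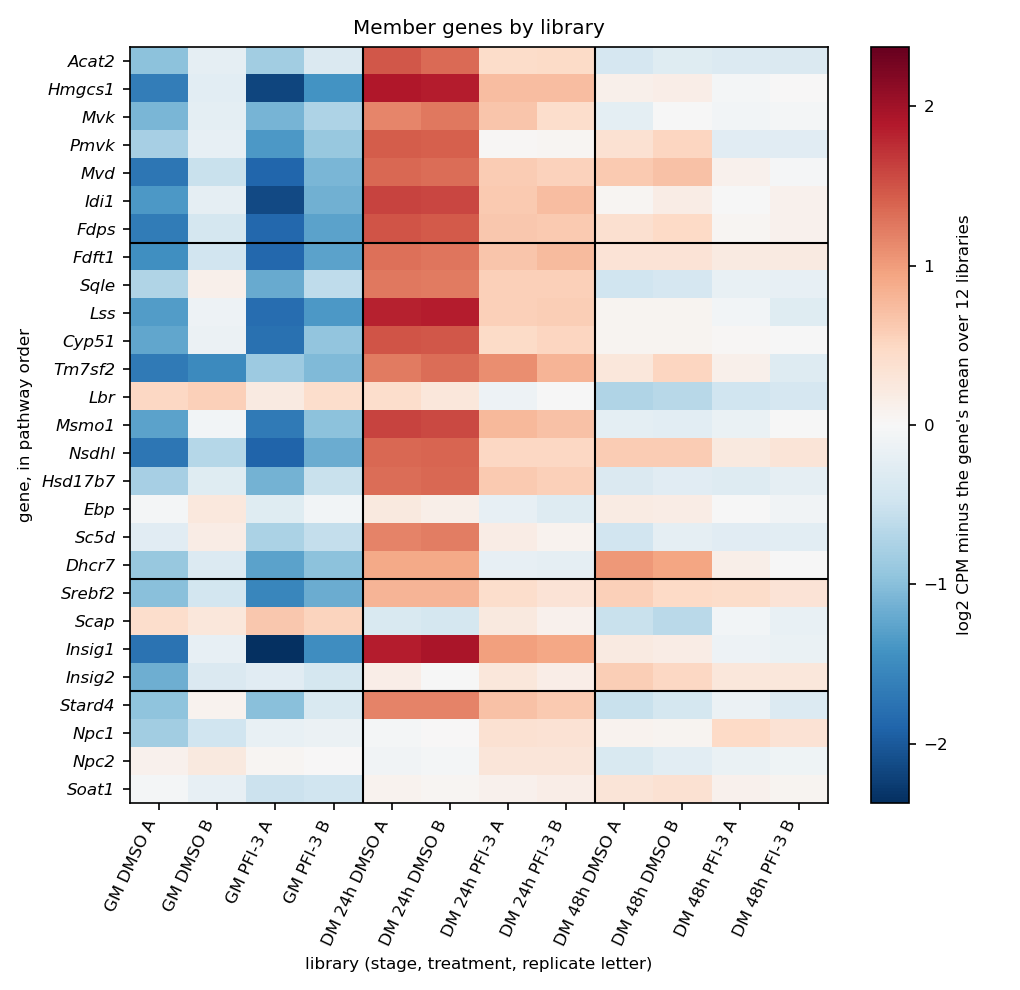
Each row is a member gene in pathway order and each column a library; the colour gives log2 CPM minus the gene's mean over the 12 libraries, and black lines separate stages and gene roles. The DM 24h DMSO columns are the reddest for most enzymes, and in GM the A columns are bluer than the B columns.

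The first stretch of the pathway, from acetyl-CoA to farnesyl diphosphate, moved as a block with stage. Hmgcs1, the synthase that makes HMG-CoA, was at 69.3 and 184 CPM in the GM DMSO libraries. After 24 h in DM it was at 812 and 788 CPM, and after 48 h at 237 and 242 CPM. Its rise was 2.66 (SE 0.33, adjusted p 2.55e-05) and its later fall -1.74 (SE 0.32, adjusted p 0.00074), both as log2 fold changes. DM 24h values stood above every GM and DM 48h value, although the GM libraries themselves differed widely. All 7 genes of this stretch rose by 1.79 (Mvk) to 2.66 and all 7 fell again by DM 48h, the least being Mvd (-0.69) and the most Acat2 (-1.75).

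Among the 12 genes from squalene to cholesterol, 10 rose and 10 fell in the same pair of steps. Lss (NCBI Gene 16987), lanosterol synthase, which closes the first sterol ring system, was at 22.7 and 52.0, then 202 and 206, then 59.2 and 59.1 CPM at the 3 stages. Msmo1, a sterol C4-methyl oxidase, was at 39.4 and 90.4, then 289.9 and 282, then 80.6 and 79.7 CPM, and its fall of -1.83 was the steepest among members. The sharpest rise was that of Tm7sf2, a sterol C14-reductase, with 2.86 (SE 0.19). Its level was low, at 3.21 and 3.62 CPM in GM and 23.9 and 25.8 CPM at DM 24h. Lbr, the lamin B receptor of the inner nuclear membrane with the same reductase activity, went another way. It was not called in the first step (log2 fold change -0.18, SE 0.08, adjusted p 0.0788) and fell to 47.6 and 49.2 CPM at DM 48h from 104 and 94.6 (log2 fold change -1.04, SE 0.09, adjusted p 1.3e-06). Ebp, the sterol isomerase, was called at neither step (0.07 and 0.01). Dhcr7 (NCBI Gene 13360), the reductase that yields cholesterol in the final step of one branch, rose to 130.5 and 130.1 CPM from 37.5 and 55.5 and stayed at 142 and 133 CPM at DM 48h, with no call for the second step (log2 fold change 0.08, SE 0.14, adjusted p 0.668).

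The control genes split. Srebf2 (NCBI Gene 20788), which encodes SREBP2, rose from 249 and 363 to 858 and 866 CPM (log2 fold change 1.49, SE 0.15, adjusted p 4.22e-06) and was at 726 and 689 CPM at DM 48h, a step that was not called (log2 fold change -0.28, SE 0.15, adjusted p 0.131). Insig1, itself a known SREBP2 target, followed the enzymes, at 22.5 and 65.8, 275 and 289 and 87.4 and 85.8 CPM. Scap fell from 131 and 119 to 76.2 and 73.3 CPM (log2 fold change -0.74, SE 0.08, adjusted p 8.89e-06), with no overlap of the groups. Insig2 rose at both steps, by 0.77 and 0.46, from 19.3 and 33.8 CPM to 48.0 and 42.6 and 64.5 and 60.0. In the transport group, Stard4, a cytosolic sterol carrier, rose by 1.52 and fell by 1.65, and Npc1 (NCBI Gene 18145), which exports cholesterol from lysosomes, rose by 0.61 and was not called afterwards. Npc2, its soluble lysosomal partner, fell at both steps (-0.23 and -0.24), and Soat1, which esterifies cholesterol for storage, rose at both (0.17 and 0.28).

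On the length-scaled FPKM values, which allow levels of different genes to be compared, Npc2 led in GM DMSO at 113 ± 11.4 FPKM (SD, n = 2) with Srebf2 at 66.0 ± 19.9 behind it. At DM 24h with DMSO the order was led by Fdps, farnesyl diphosphate synthase, at 348 ± 9.91, then Hmgcs1 at 231 ± 5.70 and Srebf2 at 192 ± 0.537 FPKM. Msmo1 at 163 ± 3.90, Sqle at 152 ± 0.990 and Idi1 at 149 ± 1.92 FPKM came next. Tm7sf2 was lowest in both groups, at 2.32 ± 0.283 and 17.5 ± 0.841 FPKM, even after its rise. The top ranks at DM 24h were thus held by enzymes of the first stretch, by Msmo1 and Sqle of the later one, and by the gene of SREBP2.

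The response of the members to a ligand of the BRM and BRG1 bromodomains was read from PFI-3 against DMSO within a stage. At DM 24h, 3 of 27 members were higher and 18 lower with PFI-3, where 12.2% of all genes tested were higher and 11.4% lower. The members' median log2 fold change was -0.74 and that of all genes 0.00. Of the 19 enzymes, 17 fell, and all 19 had values below 0, with a median of -0.85 and a range from -1.38 to -0.31. Their summed CPM was 4511 and 4430 with DMSO and 2410 and 2423 with PFI-3, so the vehicle mean was 1.85 times the PFI-3 mean. All 27 members had groups that did not overlap, 22 lower and 5 higher, where over all genes 35.2% were lower without overlap and 35.3% higher.

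**Figure D2:**
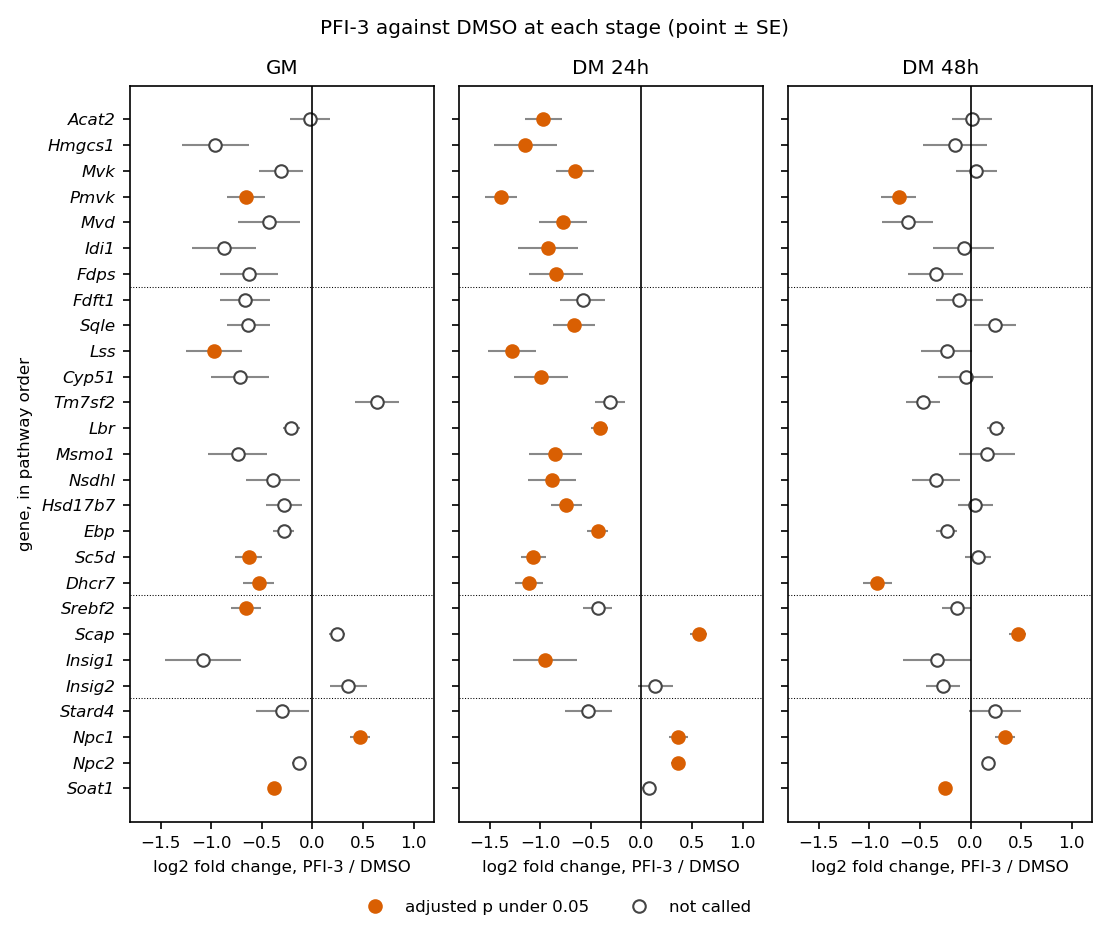
Points give the log2 fold change of PFI-3 over DMSO with its standard error for each member at each stage, filled where the adjusted p is under 0.05. At DM 24h 17 of the 19 enzymes are filled to the left of 0, in GM 4 and at DM 48h 2.

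In the first stretch of the pathway all 7 genes fell at DM 24h. Pmvk (NCBI Gene 68603), phosphomevalonate kinase, was at 45.7 and 45.2 CPM with DMSO and 17.3 and 17.5 CPM with PFI-3, 2.61-fold lower (log2 fold change -1.38, SE 0.16, adjusted p 8.71e-05). Hmgcs1 was at 812 and 788 CPM with DMSO and 361 and 362 CPM with PFI-3 (log2 fold change -1.15, SE 0.31, adjusted p 0.0202). Idi1, which isomerises the isoprenoid unit, was at 421 and 415 CPM with DMSO and 213 and 228 CPM with PFI-3, a change of -0.92. In each of these 3 genes the replicates lay close together and far from the other treatment. Fdps was at 424 and 411 CPM with DMSO and 234 and 231 CPM with PFI-3 (-0.85). Mvd, which decarboxylates mevalonate diphosphate, was at 83.3 and 82.0 CPM with DMSO and 49.2 and 47.3 CPM with PFI-3 (-0.78). Mvk, mevalonate kinase, was at 69.0 and 73.8 CPM with DMSO and 48.8 and 41.6 CPM with PFI-3 (-0.66). Among the 7, Mvk had the widest gap between PFI-3 libraries relative to its level and the smallest change. Adjusted p-values of Hmgcs1, Idi1, Fdps, Mvd and Mvk lay between 0.0202 and 0.0397. Acat2, which makes acetoacetyl-CoA, was at 236 and 218 CPM with DMSO and 115 and 117 CPM with PFI-3 (log2 fold change -0.97, SE 0.19, adjusted p 0.00307). It had fractional counts in 12 of 12 libraries, as its near copy Acat3 did, so how reads were divided between the pair is uncertain. Summed over both genes, the values were 278 and 264 CPM with DMSO and 155 and 158 with PFI-3, which leaves the gap between treatments in place.

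From squalene onward, 10 of 12 genes fell. Lss was at 202 and 206 CPM with DMSO and 83.5 and 84.7 CPM with PFI-3, 2.42-fold lower (log2 fold change -1.28, SE 0.24, adjusted p 0.00256). Dhcr7 was at 130.5 and 130.1 CPM with DMSO and 60.6 and 60.3 CPM with PFI-3 (log2 fold change -1.11, SE 0.14, adjusted p 0.000181). Sc5d, lathosterol oxidase, which adds the ring double bond before the last reduction, was at 112 and 114 CPM with DMSO and 55.8 and 52.2 CPM with PFI-3 (log2 fold change -1.07, SE 0.12, adjusted p 8.39e-05). These 3 genes changed by more than 1 on the log2 scale, the largest falls among the sterol enzymes. Cyp51, lanosterol demethylase, was at 389 and 385 CPM with DMSO and 191 and 197 CPM with PFI-3 (-0.99). Nsdhl, a sterol dehydrogenase of the demethylation complex, was at 235 and 237 CPM with DMSO and 128 and 128 CPM with PFI-3 (-0.88). Msmo1, which acts in the same complex, was at 289.9 and 282 CPM with DMSO and 163 and 154 CPM with PFI-3 (-0.85). The demethylation complex was thus lower in each of its genes measured here, since Hsd17b7, its ketoreductase, was at 96.6 and 99.2 CPM with DMSO and 59.7 and 57.2 CPM with PFI-3 (-0.74). Sqle, squalene epoxidase, was at 407 and 405 CPM with DMSO and 255 and 256 CPM with PFI-3 (-0.67). Ebp was at 59.5 and 56.0 CPM with DMSO and 44.3 and 41.2 CPM with PFI-3 (-0.43). Ebp and Lbr, the enzymes that had not risen on induction, fell by the least among those called, Lbr from 104 and 94.6 to 71.9 and 77.3 CPM (-0.41). Adjusted p-values of Cyp51, Nsdhl, Msmo1, Hsd17b7, Sqle, Ebp and Lbr lay between 0.00471 and 0.0361. Not called were Fdft1, squalene synthase, at 371 and 361 CPM with DMSO and 236 and 253 CPM with PFI-3 (log2 fold change -0.58, SE 0.23, adjusted p 0.0831), and Tm7sf2 (log2 fold change -0.31, SE 0.15, adjusted p 0.157).

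**Figure D3:**
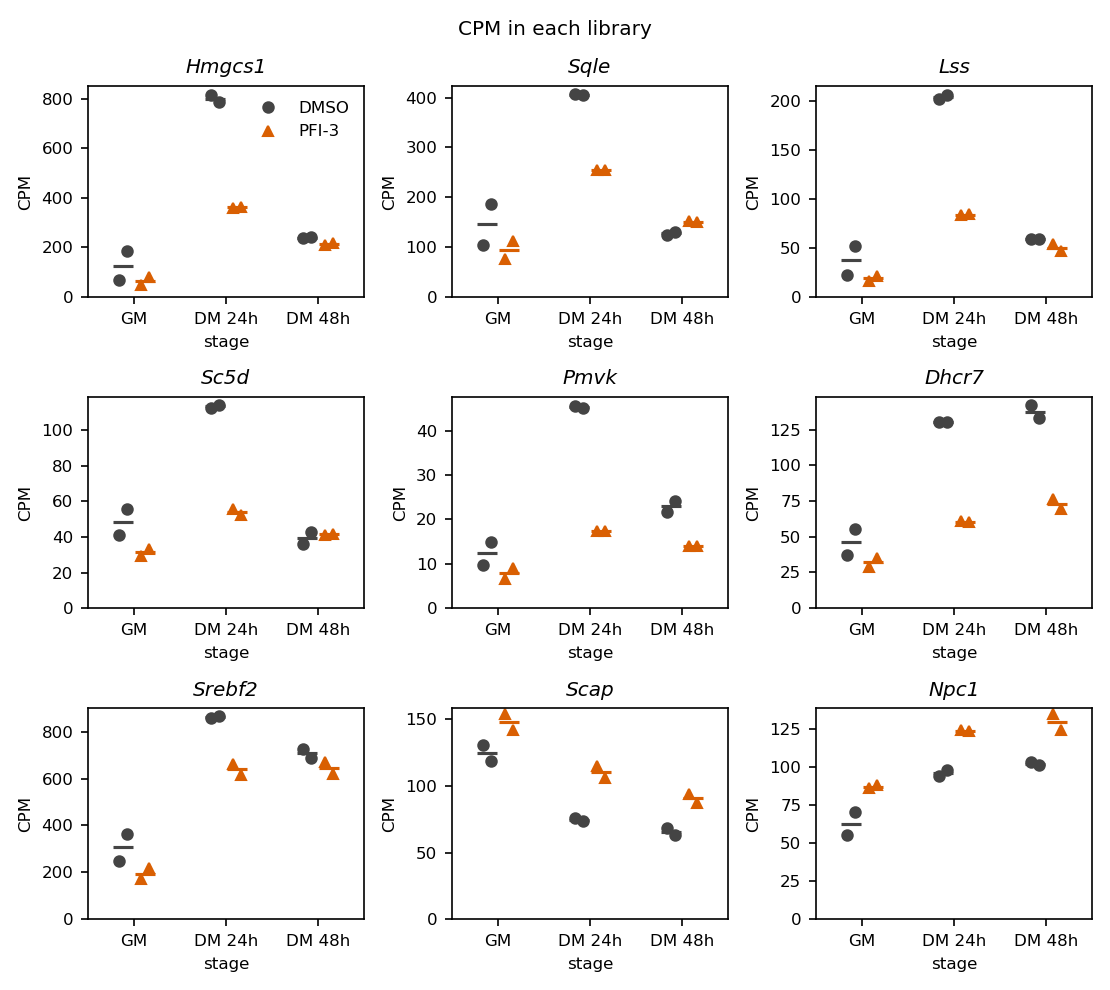
Points are CPM in single libraries for 9 members, by stage, with circles for DMSO, triangles for PFI-3 and bars at group means. At DM 24h the DMSO circles of Hmgcs1, Sqle, Lss, Sc5d, Pmvk, Dhcr7 and Srebf2 lie above the PFI-3 triangles, while those of Scap and Npc1 lie below them.

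The control and transport genes did not follow the enzymes as a group at DM 24h. Srebf2 was at 858 and 866 CPM with DMSO and 661 and 616 CPM with PFI-3, lower in both libraries but not called (log2 fold change -0.43, SE 0.15, adjusted p 0.0511). Insig1 fell, with 275 and 289 CPM with DMSO and 149 and 142 CPM with PFI-3 (log2 fold change -0.95, SE 0.31, adjusted p 0.046). Scap rose, with 76.2 and 73.3 CPM with DMSO and 115 and 106 CPM with PFI-3 (log2 fold change 0.57, SE 0.08, adjusted p 0.000454). SREBP2 and its escort thus had changes of opposite sign, of which that of Scap was called, while Insig2, at 48.0 and 42.6 CPM with DMSO and 51.6 and 48.0 CPM with PFI-3, was not called (log2 fold change 0.14, SE 0.17, adjusted p 0.612). Npc1 rose from 94.1 and 98.1 to 124 and 123 CPM (log2 fold change 0.37, SE 0.09, adjusted p 0.016). Npc2 rose from 316 and 321 to 407 and 408 CPM (log2 fold change 0.36, SE 0.06, adjusted p 0.0023). Both lysosomal export genes were higher while the synthesis enzymes were lower. Stard4 (log2 fold change -0.53, SE 0.23, adjusted p 0.126) and Soat1 (log2 fold change 0.07, SE 0.06, adjusted p 0.47) were not called.

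The DM 24h counts depend on how the spread is estimated. Leaving out any 1 of the 4 libraries, DM 24h DMSO A or B or DM 24h PFI-3 A or B, lowered the number of members called. Such a fit leaves 1 library in a group, and the share of all genes called fell as well. Fitting just these 4 libraries called 25, including all 21, and the 4 gained were Fdft1, Srebf2, Stard4 and Tm7sf2. The fit of the 8 DM libraries, chosen after the GM libraries were seen to differ, gave 3 higher and 22 lower. Over all genes tested these 4-library and 8-library fits called 46.5% and 44.7%, against 23.6% in the fit of all libraries. limma on log2(FPKM + 1) called 3 higher and 8 lower, losing Cyp51, Fdps, Hmgcs1, Idi1, Insig1, Msmo1, Mvd, Mvk, Nsdhl and Sqle. It called 24.0% of all genes tested. The DESeq2 Wald test called 15, without Fdps, Idi1, Insig1, Msmo1, Mvd, Nsdhl and Sqle and with Srebf2, and 18.2% of all genes tested.

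In proliferating cells fewer members were called, 1 higher and 6 lower, where 5.46% of all genes tested were higher and 6.15% lower. The members' median was -0.43 and that of all genes -0.01. The genes that fell were the enzymes Pmvk, Lss, Sc5d and Dhcr7 with Srebf2 and Soat1, and the gene that rose was Npc1. Groups did not overlap for 9 members lower and 3 higher, where over all genes 24.0% were lower without overlap and 21.4% higher, and 15 members overlapped.

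The GM libraries differed from each other across these genes. Library B was above library A for 25 of 27 members with DMSO and 23 of 27 with PFI-3, with median log2 ratios of 0.79 and 0.45. The medians over all 10656 genes with at least 50 counts on average were -0.01 and 0.00, and 2.46% and 5.87% of those genes had a ratio above the members' median. In the 4 DM groups the members' median ratio was between -0.02 and 0.05. With DMSO Insig1 had the largest ratio of B to A, at 22.5 and 65.8 CPM. With PFI-3 Idi1 had the largest, at 31.5 and 63.0 CPM, and Insig1 was at 14.6 and 27.3 CPM. Whether the letters stand for separate cultures, passages or days was not given in the sources used here.

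**Figure D4:**
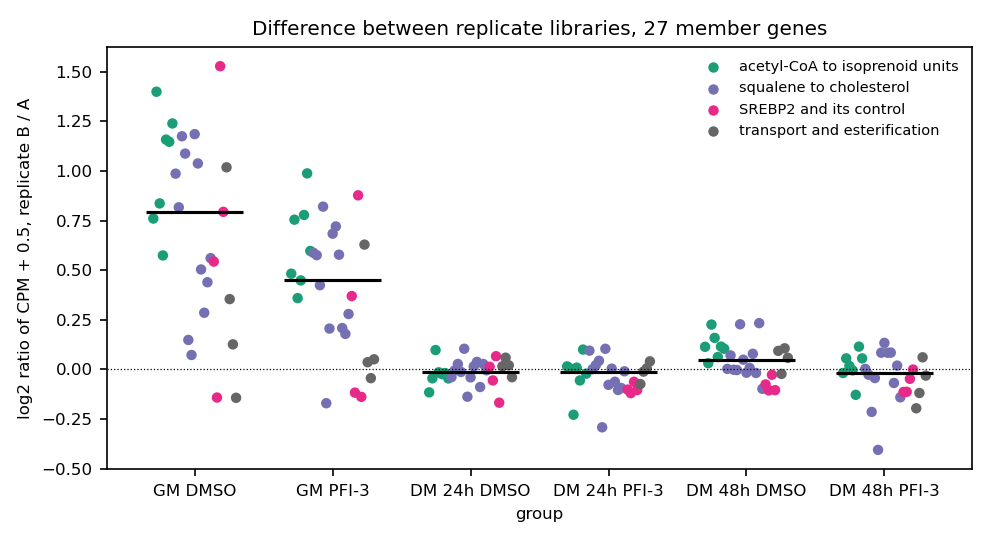
Each point is a member gene, coloured by its role, and the axis gives the log2 ratio of CPM + 0.5 in library B over library A; bars are medians over the 27 genes. In GM DMSO and GM PFI-3 the bars are at 0.79 and 0.45, and in the 4 DM groups near 0.

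Single genes in GM show both effects together. Lss was at 22.7 and 52.0 CPM with DMSO and 16.2 and 21.9 CPM with PFI-3 (log2 fold change -0.97, SE 0.28, adjusted p 0.0429), so that the higher PFI-3 library lay just under the lower DMSO one. Sc5d was at 41.1 and 55.9 CPM with DMSO and 29.4 and 33.3 CPM with PFI-3 (log2 fold change -0.63, SE 0.13, adjusted p 0.0109), and Dhcr7 at 37.5 and 55.5 CPM with DMSO and 29.0 and 35.3 CPM with PFI-3 (log2 fold change -0.53, SE 0.15, adjusted p 0.0415). In these 3 genes PFI-3 libraries lay below DMSO libraries of either letter. Pmvk was at 9.80 and 14.8 CPM with DMSO and 6.55 and 9.12 CPM with PFI-3 (log2 fold change -0.66, SE 0.19, adjusted p 0.0464), also without overlap. Srebf2 was at 249 and 363 CPM with DMSO and 169 and 219 CPM with PFI-3 (log2 fold change -0.66, SE 0.15, adjusted p 0.0177), and Soat1 at 199 and 181 CPM with DMSO and 144 and 149 CPM with PFI-3 (log2 fold change -0.37, SE 0.07, adjusted p 0.00461). Soat1 had fractional counts in 11 of 12 libraries, so how its reads were divided among genes is uncertain. Npc1 rose, from 55.0 and 70.5 to 85.8 and 88.1 CPM (log2 fold change 0.47, SE 0.10, adjusted p 0.011). Also large but uncalled were Insig1 (log2 fold change -1.08, SE 0.37, adjusted p 0.0827) and Hmgcs1, at 69.3 and 184 CPM with DMSO and 48.3 and 81.9 CPM with PFI-3 (log2 fold change -0.96, SE 0.33, adjusted p 0.0828), whose groups overlapped. Tm7sf2 was the enzyme with a value above 0 (log2 fold change 0.64, SE 0.22, adjusted p 0.0793).

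The GM count moved with the library left out. It rose without GM DMSO A or GM PFI-3 B and fell without GM DMSO B or GM PFI-3 A. Each such fit leaves 1 library in a group. The share of all genes called moved too, and it rose without GM DMSO B, where the member count fell. Fitting just the 4 GM libraries called none of the 27, where 0.27% of all genes tested were called. Adding the replicate letter as a block there gave 12, where 6.36% of all genes were called. At an unadjusted p under 0.05 the fit of 4 libraries by edgeR without the block gave 8 of the 27. The DESeq2 Wald test over all libraries called 6, without Lss, where 8.91% of all genes tested were called. On log2(FPKM + 1) limma called 3 higher and 1 lower, in place of 1 and 6, where 11.2% of all genes tested were called. It lost Pmvk, Lss, Sc5d, Dhcr7 and Srebf2 and gained Scap and Tm7sf2 as higher, so no enzyme was called lower.

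At 48 h of differentiation most enzymes were not called between treatments in the fit of all 12 libraries. With PFI-3, 2 members were higher and 3 lower, where 13.4% of all genes tested were higher and 14.0% lower, shares that are not smaller than those of the members. The members' median was -0.11, against 0.00 for all genes, and the summed CPM of the enzymes was 1801 and 1856 with DMSO and 1633 and 1649 with PFI-3. Groups did not overlap for 15 members lower and 7 higher, where over all genes 35.9% were lower without overlap and 35.4% higher.

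Pmvk and Dhcr7 were the enzymes still called lower in the fit of all libraries. Not every uncalled enzyme had like values in the 2 treatments. Mvd was at 50.3 and 52.5 CPM with DMSO and 34.9 and 31.9 CPM with PFI-3, without overlap. Dhcr7 was at 142 and 133 CPM with DMSO and 76.3 and 69.2 CPM with PFI-3 (log2 fold change -0.92, SE 0.14, adjusted p 0.000424), 1.89-fold lower. Pmvk was at 21.6 and 24.2 CPM with DMSO and 14.0 and 14.0 CPM with PFI-3 (log2 fold change -0.71, SE 0.17, adjusted p 0.0086). For both, every PFI-3 value lay under every DMSO value, as in GM and at DM 24h. Soat1 fell, from 254 and 265 to 221 and 216 CPM (log2 fold change -0.25, SE 0.06, adjusted p 0.0133). Scap rose from 68.1 and 63.2 to 94.2 and 87.1 CPM (log2 fold change 0.46, SE 0.08, adjusted p 0.00133), and Npc1 from 103 and 101 to 135 and 124 CPM (log2 fold change 0.34, SE 0.09, adjusted p 0.0188). Pmvk, Dhcr7 and Npc1 were thus the members called at all 3 stages in the fit of all libraries, each in 1 direction. Their GM calls were lost in the fit of only the GM libraries, and those of Pmvk and Dhcr7 also with limma on FPKM. By contrast Sc5d, 2.10-fold lower at DM 24h, had reached 36.1 and 42.5 CPM with DMSO and 41.1 and 41.7 CPM with PFI-3 a day later (log2 fold change 0.07, SE 0.13, adjusted p 0.72), and Sqle was at 125 and 131 CPM with DMSO and 152 and 149.7 CPM with PFI-3 (log2 fold change 0.24, SE 0.21, adjusted p 0.438).

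The DM 48h call of Soat1 was lost without DM 48h DMSO B, DM 48h PFI-3 A or DM 48h PFI-3 B, and so was that of Pmvk. That of Npc1 was lost without DM 48h DMSO A, DM 48h DMSO B or DM 48h PFI-3 A. Fewer members, and a smaller share of all genes, were called without any 1 of the DM 48h libraries, in fits that leave 1 library in a group. When the GM libraries were left out of the fit, 7 were called higher and 14 lower. That fit called 47.2% of all genes tested, against 27.4% in the fit of all libraries. limma on log2(FPKM + 1) called 4 higher and 3 lower, where 31.2% of all genes tested were called.

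The difference of the PFI-3 effect between stages was tested directly. Between DM 24h and DM 48h the effect differed for 5 of 27 members, 4 with a higher value at DM 48h and 1 with a lower one, where 12.1% of all genes tested differed. Sc5d went from -1.07 to 0.07 (difference 1.14, SE 0.18, adjusted p 0.00142). Lbr went from -0.41 to 0.25 (difference 0.66, adjusted p 0.00431). Acat2, Hsd17b7 and Soat1 differed by 0.98, 0.79 and -0.32, and their calls were lost whichever DM library was left out, which left 2. Over the 8 DM libraries alone 18 differences were called above 0 and 3 below, where 33.6% of all genes tested differed. Between GM and DM 24h the effect differed for 2 members, Npc2 (0.49) and Soat1 (0.45), where 3.37% of all genes differed. No enzyme was called there by edgeR, 5 had an unadjusted p under 0.05, and the DESeq2 Wald test called Acat2, so the larger number of enzymes called at DM 24h than in GM is not shown as a difference between stages for the other enzymes. Both calls were lost when any 1 DM 24h library was left out. More members were called without GM DMSO B, where the share of all genes called rose as well. Between GM and DM 48h it differed for 4 members, where 14.5% of all genes differed: Sc5d (0.70), Lbr (0.46), Npc2 (0.31) and Tm7sf2 (-1.11). The last was at 3.21 and 3.62 CPM with DMSO and 5.67 and 4.99 CPM with PFI-3 in proliferating cells, and the values at DM 48h were 12.4 and 14.6 CPM with DMSO and 11.1 and 8.28 CPM with PFI-3. The count for GM against DM 48h rose without GM DMSO A, GM DMSO B or GM PFI-3 B. It fell without GM PFI-3 A or any 1 DM 48h library. The share of all genes called rose without any 1 GM library and fell without any 1 DM 48h library.

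Cells under PFI-3 also raised these genes on induction. Between GM and DM 24h with PFI-3, 24 of 27 members rose and 2 fell, where 32.1% of all genes tested rose and 28.2% fell, with a member median of 1.44. The summed CPM of the enzymes went from 642 and 931 to 2410 and 2423, a ratio of the means of 3.07. This comparison shares no library with the one in DMSO, where the median was 1.85. Hmgcs1 rose by 2.47 with PFI-3 and by 2.66 with DMSO, and Lss by 2.14 and 2.44. Scap and Lbr were the genes that fell, by 0.42 and 0.38 on the log2 scale. Npc2 rose with PFI-3 (0.26), where it fell with DMSO. Between DM 24h and DM 48h with PFI-3, none rose and 13 fell, where 13.1% of all genes tested rose and 14.2% fell, with a member median of -0.48. At an unadjusted p under 0.05 by edgeR none rose and 14 fell. The DESeq2 Wald test called 6, where 20.7% of all genes tested were called. Of the 13, 9 were enzymes, with falls such as -1.05 for Tm7sf2 and -0.86 for Hsd17b7. Leaving out any 1 of the 4 libraries reduced the 13, and the share of all genes called fell as well. The fit of the 8 DM libraries raised the 13 to 23, where 47.5% of all genes tested were called.

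Genes around the pathway were counted from lists of neighbouring functions. Of 15 genes that process SREBP or remove sterol-regulated proteins from the endoplasmic reticulum, edgeR called none in GM, where 2 had an unadjusted p under 0.05 and DESeq2 called none. At DM 24h 1 rose and 2 fell, and at DM 48h 2 rose and 1 fell. Rnf145, an endoplasmic reticulum ubiquitin ligase, rose by 0.23 (SE 0.06, adjusted p 0.0189) at DM 24h, and Sec23a, a coat protein of vesicles leaving that organelle, fell by 0.22 (SE 0.06, adjusted p 0.0253). At DM 48h Mbtps1, the Golgi protease that makes the first cut of SREBP, rose by 0.30 (SE 0.07, adjusted p 0.00662), and Erlin1 rose by 0.41 (SE 0.10, adjusted p 0.0106). The medians of this list were -0.04, 0.04 and -0.02.

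Genes of fatty acid synthesis, the programme of the related factor SREBP1, moved with PFI-3 at both differentiation times. Of 22 tested, 3 fell in GM. At DM 24h 14 fell and 1 rose, and at DM 48h 8 fell and 1 rose. Over all genes tested 6.15% fell in GM, 11.4% fell and 12.2% rose at DM 24h, and 14.0% fell and 13.4% rose at DM 48h. The list medians at the 3 stages were -0.09, -0.65 and -0.26. Fasn, fatty acid synthase, fell in GM from 904 and 929 to 575 and 631 CPM (log2 fold change -0.60, SE 0.07, adjusted p 0.000256), and Elovl6 fell too (-0.43, SE 0.11, adjusted p 0.0297). Scd1, a stearoyl-CoA desaturase, showed 1042 and 1052 CPM with DMSO and 390.4 and 413 CPM with PFI-3 after 24 h (-1.38, SE 0.16, adjusted p 8.67e-05), and 776 and 760.0 CPM with DMSO and 318 and 318 CPM with PFI-3 after 48 h (-1.27). Scd2 changed by -1.29 and -1.14. Both had fractional counts in 12 of 12 libraries, and summed over the pair the values were 5833 and 5837 CPM against 2370.0 and 2344 at DM 24h, and 4271 and 4179 against 1900.1 and 1864 at DM 48h. The desaturases were thus still lower at DM 48h, when 17 of 19 cholesterol enzymes were not called in the fit of all 12 libraries. In the fit of the 8 DM libraries 21 members, most of them enzymes, were called at DM 48h, where 47.2% of all genes tested were called. The difference between these lists was not tested.

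Markers of the muscle state moved with PFI-3 at the same stages. Of 16 myotube markers, 1 rose and 2 fell in GM; 15 fell at each of the differentiation times. At DM 24h their summed CPM was 3804 ± 15.9 (SD, n = 2) with vehicle and 1873 ± 13.3 with PFI-3. A day later it was 24680 ± 113 and 15861 ± 111. Of 12 proliferation markers, edgeR and DESeq2 called none in GM (5 and 4 at an unadjusted p under 0.05). At DM 24h 4 fell, where 11.4% of all genes tested fell, and at DM 48h 12 rose, where 13.4% rose. The sums of the proliferation markers at DM 48h were 984 ± 16.1 with DMSO and 1865 ± 2.39 with PFI-3. The part of either in the changes of the cholesterol genes was not tested. With DMSO the myotube markers went on rising from DM 24h to DM 48h while the enzymes fell.

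**Figure D5:**
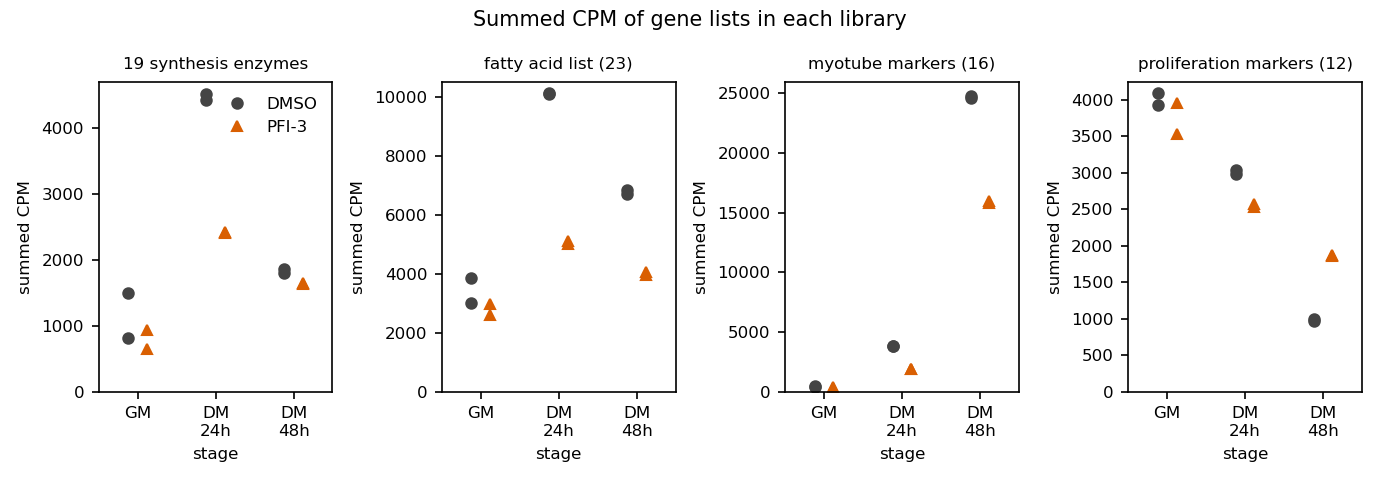
Points are the summed CPM of a gene list in each library, by stage and treatment, each panel with its own axis from 0. The 19 enzymes peak at DM 24h with DMSO (4511 and 4430 CPM), while the myotube markers are highest at DM 48h.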

How the data were processed

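RNA was measured in 12 libraries, and 1 table per library was deposited. Per the file headers, each table gives an expected count and an FPKM per gene, values the authors made per library without pooling. The submitters' processing notes name HISAT, StringTie, Cufflinks, Bowtie, RSEM and DESeq2 and the build mm10, with no roles. Whether counting used strand is not given in the sources used here. Library totals were 12576374 to 13658352 expected counts, and tables listed 13499 to 14231 genes. A gene missing from a table was taken as 0. In the 6963 cases where 1 replicate alone listed a gene, its count was at most 5 in 97.0%.

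Expected counts were rounded and tested with edgeR 4.0.16 (R 4.3.3): TMM scaling, the default low-count filter, 1 model of 6 groups over 12 libraries, the quasi-likelihood test, and Benjamini-Hochberg adjustment over 12545 genes. SEs derive from the same test. Values with ± are mean and SD, n = 2. The code was tested on simulated data. Alternatives were the replicate letter as a block, median-ratio size factors, the DESeq2 1.42.0 Wald test, no filter, a mean of at least 10 counts, limma 3.58.1 on log2(FPKM + 1) and log2(FPKM + 0.1), only the libraries compared with and without the block, and each library left out. A fit of the 8 DM libraries was chosen after seeing the data. The replicate letters went together across treatments in GM but not at the DM stages. The deviations of A and B from group means had a correlation between treatments of 0.504 for GM but only 0.029 and 0.047 for the DM stages. The model of 12 libraries did not use this pairing.

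The member genes and gene lists were chosen with earlier results of these data known. All members are named. From each other pathway list the genes named are, per stage, the 2 called genes of largest change whose mean CPM was 5 or more. Tables and figures used Python 3.11.15, pandas 2.3.3 and matplotlib 3.10.9.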

Additional observations from a re-analysis of the deposited data

Results flagged for a closer look

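The PFI-3 effect on the member genes named below differed between stages by edgeR's test of the difference itself, giving 11 differences in log2 fold change. From GM to DM 24h the effect shifted by 0.45 for Soat1 (adjusted p 0.0251) and by 0.49 for Npc2 (adjusted p 0.0158). From GM to DM 48h it shifted by 0.70 for Sc5d, 0.31 for Npc2, -1.11 for Tm7sf2 and 0.46 for Lbr, with adjusted p-values of 0.0248, 0.0422, 0.0189 and 0.0255. Tm7sf2 was low throughout, at 3.21 and 3.62 CPM in GM with DMSO. From DM 24h to DM 48h it shifted by 0.98 for Acat2, 0.79 for Hsd17b7, -0.32 for Soat1, 1.14 for Sc5d and 0.66 for Lbr, with adjusted p-values of 0.0348, 0.0446, 0.0416, 0.00142 and 0.00431. Sc5d and Lbr appear in both of the last comparisons, which share the DM 48h libraries. No group had 4 or more replicates, so single libraries were not screened for values far from the rest.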

How the results depend on the processing

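Counts of called members are given as values under an alternative against the value reported. With limma on FPKM, under either pseudocount, 4 in place of 7 were called for PFI-3 in GM, 11 in place of 21 at DM 24h, 8 in place of 13 from DM 24h to DM 48h in PFI-3 cells, 2 in place of 4 for the difference between DM 48h and GM, and 3 in place of 5 for that between DM 48h and DM 24h. The DESeq2 Wald test called 6 in place of 13 from DM 24h to DM 48h in PFI-3 cells. In fits of only the libraries compared the edgeR counts were 0 in GM (8 at an unadjusted p under 0.05), 20 at DM 48h (reported 5), 23 from DM 24h to DM 48h in PFI-3 cells, and 0 (8 unadjusted), 1 and 21 for the differences of DM 24h from GM, DM 48h from GM and DM 48h from DM 24h. With the replicate block added there they were 12, 21, 23, 8, 13 and 21. Libraries of the same letter went together across treatments in GM but not at the DM stages. With the replicate block in the fit of all libraries the counts for PFI-3 against DMSO were 9, 23 and 5 over the 3 stages in order. The 8 DM libraries alone gave 21 at DM 48h, 23 from DM 24h to DM 48h in PFI-3 cells, and 21 for the difference between these times. The shares of all genes called there were 47.2%, 47.5% and 33.6%. With each library left out in turn, counts ranged from 3 to 21 in GM, 8 to 10 at DM 24h, 2 to 4 at DM 48h, 4 from DM 24h to DM 48h in PFI-3 cells, 0 to 17 and 0 to 16 for the differences from GM, and 2 for that between the DM times. The cause of these shifts was not tested. Results of single members were followed over the PFI-3 comparisons and their differences between stages, without the stage comparisons. Of these, 2116 kept their side of the threshold, 215 passed it newly, 180 no longer passed it, and no called value changed sign. The 2116 include results called in neither fit. Only called results could be among the 180, so their share of called results is larger than their share of all results. Some uncalled values did change sign, such as that of Acat2 in GM, which ran from -0.35 to 0.42 over the alternatives. No scaling moved the median of all genes by over 0.1. With 2 libraries a group, values that miss the threshold do not show that groups are alike.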

Other observations

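Genes that take up, release or store cholesterol outside the 27 were counted in the same way. Of 22 such genes tested, 5 rose and 1 fell in GM, where 5.46% of all genes tested rose and 6.15% fell. At DM 24h 3 rose and 1 fell, where 12.2% of all genes rose and 11.4% fell. At DM 48h edgeR called 6 lower and none higher (2 higher at an unadjusted p under 0.05), and DESeq2 called 5. There edgeR called 14.0% of all genes lower and 13.4% higher. Vldlr, the very low density lipoprotein receptor, was at 3.21 and 2.14 CPM with DMSO and 19.2 and 8.83 CPM with PFI-3 in GM (log2 fold change 2.39, SE 0.35, adjusted p 0.00145) and at 10.5 and 9.52 CPM against 38.1 and 42.3 CPM after a day of differentiation (2.00, SE 0.26, adjusted p 0.000229), and every PFI-3 value lay above every DMSO value at both stages. Mylip, a ubiquitin ligase that removes lipoprotein receptors, was higher in GM at 8.31 and 6.94 CPM with DMSO and 12.4 and 12.5 CPM with PFI-3 (0.71, SE 0.14, adjusted p 0.0099) and lower at DM 48h at 58.1 and 54.6 CPM with DMSO and 30.7 and 32.8 CPM with PFI-3 (-0.83, SE 0.11, adjusted p 0.000152). Nceh1, a hydrolase of cholesterol esters, rose at DM 24h (0.56, SE 0.14, adjusted p 0.0132), and Scarb2, a lysosomal membrane protein, fell at DM 48h (-0.39, SE 0.08, adjusted p 0.00241).

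The side branches that use isoprenoid units moved little. Of 14 genes, edgeR called none in GM (2 at an unadjusted p under 0.05), 3 rose at DM 24h, and 1 rose and 1 fell at DM 48h, with medians of 0.00, 0.02 and 0.00. The DESeq2 Wald test called none of the 14 at any of the 3 stages. Dhdds, which starts dolichol synthesis, rose by 0.31 (SE 0.08, adjusted p 0.0202) and Fnta, a shared subunit of the prenyl transferases, by 0.30 (SE 0.08, adjusted p 0.0189) at DM 24h. At DM 48h Rabggta, of the Rab prenyl transferase, fell by 0.29 (SE 0.09, adjusted p 0.0401), and Icmt, which methylates prenylated proteins, rose by 0.21 (SE 0.07, adjusted p 0.0472). In GM, where nearly all members were higher in library B than in A, the isoprenoid list had a median log2 ratio of B to A of -0.04 with DMSO, the SREBP processing list 0.00 and the fatty acid list 0.32.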
